A study of Mus musculus with 3 samples.

Results

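The miR-29 family was followed through the first days after muscle injury as 5 mature miRNAs, mmu-miR-29a-3p, mmu-miR-29a-5p, mmu-miR-29b-3p, mmu-miR-29c-3p and mmu-miR-29c-5p. They were taken by name from the 1138 mature mouse miRNAs in the deposited tables, and all 5 were listed and had reads at every time point. The remaining arms of the miR-29 hairpins, mmu-miR-29b-1-5p and mmu-miR-29b-2-5p, are described only where they bear on these 5. The libraries held small RNAs of 18 to 30 nucleotides of tibialis anterior (TA) muscle, taken from C57BL/6 wild-type mice aged 10 weeks at day 0, day 1 or day 3 of an injury by CTX (cardiotoxin from cobra venom), which kills myofibers and sets off regeneration. RNA of 4 samples was combined before sequencing at every time point, which left 3 libraries without replicates. The labels name saline as the control injection without saying whether the day 0 muscles received it, and the labels and the study's methods give the CTX dose in different units. Because the samples were pooled and each time point had 1 library, no difference below has a replicate check, and each test on reads compares a pair of libraries, not the conditions.

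A miRNA hairpin yields a 5p and a 3p arm, and the arm that is kept in the silencing complex, the guide, recognises target mRNAs mainly through its seed, bases 2 to 8. In the miR-29 family the guides are the 3p arms. They are known for lowering collagens, elastin and other extracellular matrix proteins, for a fall in fibrotic heart and muscle, where transforming growth factor beta signalling represses them, and for promoting myoblast differentiation. The files hold miRNA reads alone, so matrix, fibrosis and target levels were not measured in these libraries.

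The 3 guide sequences show what separates the members. Each is from RefSeq (GRCm38.p6), with the seed in capitals.
miR-29a-3p: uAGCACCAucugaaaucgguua
miR-29b-3p: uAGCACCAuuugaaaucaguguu
miR-29c-3p: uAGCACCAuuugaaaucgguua
All 3 guides share the seed AGCACCA, and among the 953 listed miRNAs with a RefSeq sequence no other miRNA has it. Counted from 1 at the 5′ end, miR-29a-3p and miR-29c-3p differ by C10U alone and match at 21 of 22 bases. From miR-29c-3p to miR-29b-3p the changes are G18A, U21G and A22U, and miR-29b-3p is 1 base longer. Only miR-29b-3p ends in AGUGUU, the hexamer known to direct this miRNA to the nucleus. That hexamer occurs in 9 of the 953 sequences (0.944%) and stands at the 3′ end of 2 of them. A single base tells reads of miR-29a-3p from reads of miR-29c-3p, and the mismatches allowed when the reads were counted are not given in the sources used here, so the split of reads between these miRNAs is uncertain to that extent.

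The 5p arms have no common seed, and the 4 listed arms hold 4 different seeds, again in capitals.
miR-29a-5p: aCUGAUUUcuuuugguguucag
miR-29c-5p: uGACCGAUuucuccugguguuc
miR-29b-1-5p: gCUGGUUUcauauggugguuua
miR-29b-2-5p: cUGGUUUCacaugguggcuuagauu
These sequences matter for counting because the 5p arms differ between the hairpins, whereas miR-29b-3p is identical from both of its hairpins and its reads cannot be assigned to a locus.

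The 4 hairpins lie in 2 clusters on different chromosomes (GENCODE M21, GRCm38). On the minus strand of chromosome 6, Mir29a (chr6:31062660-31062747) and Mir29b-1 (chr6:31063023-31063093) are 275 bases apart, and the first bases of Mir29b-1 overlap an exon of the lincRNA Gm27019. On the plus strand of chromosome 1, Mir29b-2 (chr1:195037040-195037120) and Mir29c (chr1:195037547-195037634) are 426 bases apart. Both lie within 1 exon of the noncoding transcript A330023F24Rik on the same strand and, on the opposite strand, within a UTR exon of Cd46, which encodes a complement regulator. The chromosome 6 hairpins are printed with the arms in capitals, to show how the 5p arm and the guide sit in 1 precursor.
Mir29b-1: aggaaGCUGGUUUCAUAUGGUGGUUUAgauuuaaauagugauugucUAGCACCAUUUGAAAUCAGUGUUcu
Mir29a: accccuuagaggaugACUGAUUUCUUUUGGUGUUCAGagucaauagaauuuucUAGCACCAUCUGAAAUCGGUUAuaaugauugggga

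**Figure D1:**
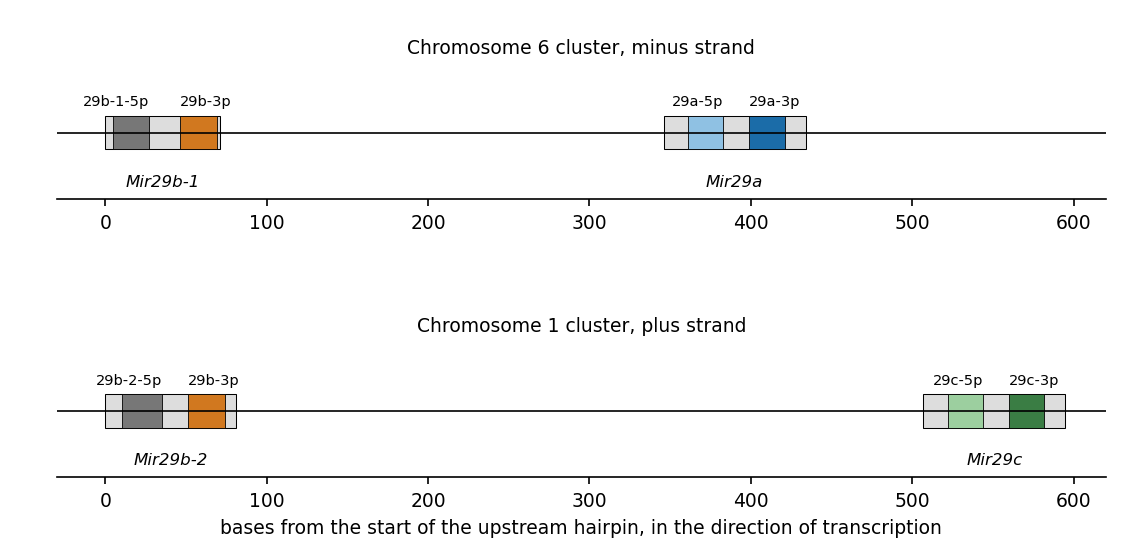
Map of both miR-29 clusters to scale, with the distance in bases from the start of the upstream hairpin along the horizontal axis. Grey boxes are hairpins and coloured boxes mature arms (dark grey for the 5p arms outside the 5 members). Each cluster holds 1 miR-29b hairpin upstream, and the gap between hairpins is 275 bases on chromosome 6 and 426 bases on chromosome 1.

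Depth was 8507580 reads for day 0, 6421056 for day 1 and 9795076 for day 3, and reads were scaled to counts per 1000000 reads of the library (CPM). The 10 most abundant miRNAs, led on day 0 by the myofiber miRNA miR-1a-3p at 233587 CPM, took 78.4%, 61.6% and 64.1% of the reads at the 3 time points. For miRNAs that reached 10 reads in each of the compared libraries, the middle log2 fold change from day 0 was 0.90 on day 1 (393 miRNAs) and 0.93 on day 3 (407 miRNAs). A log2 fold change of 0 on the CPM scale thus lies well below the typical miRNA, and changes are also given relative to that median miRNA. The ranges in parentheses are 95% intervals, by Wilson's method for levels and percentages and Wald's for log2 fold changes, and, since PCR copies are not independent molecules, cover counting error only. A count of 3 reads, taken as the floor, equals 0.353 CPM on day 0, 0.467 on day 1 and 0.306 on day 3, and every member was above it in every library.

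The summed level of the 3 guides stayed within 2763.7 to 2939.5 CPM while its make-up shifted from miR-29c-3p to miR-29a-3p and miR-29b-3p. The sum was 2763.7 CPM (2728.6 to 2799.2) on day 0, 2939.5 CPM (2898.0 to 2981.7) on day 1 and 2855.4 CPM (2822.2 to 2889.0) on day 3. In log2 terms it differed from day 0 by 0.09 (0.06 to 0.12) on day 1 and by 0.05 (0.02 to 0.07) on day 3, below the 2-fold threshold on this scale. Relative to the median miRNA the same sum was 0.81 and 0.88 log2 units down, and with TMM factors (edgeR), median-of-ratios factors (DESeq2), totals without the 10 most abundant miRNAs or the deposited expression values, the sign of the difference from day 0 turned negative on both days. The median-of-ratios factors gave -0.95 on day 1 and -1.07 on day 3, the latter past the threshold. The near-constant CPM of the guides therefore holds as a share of all miRNA reads and not on those other scales. In whole muscle, fewer cells of a type and less RNA per cell cannot be told apart.

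For miR-29a-3p, the most abundant member, 14595, 14554 and 22473 reads were counted. These counts equal 1715.5 CPM (1687.9 to 1743.6), 2266.6 CPM (2230.1 to 2303.7) and 2294.3 CPM (2264.5 to 2324.5), and miR-29a-3p ranked 40th, 48th and 46th among all miRNAs. Both injured libraries were above day 0 and near each other. The log2 fold change was 0.40 (0.37 to 0.44) on day 1 and 0.42 (0.39 to 0.45) on day 3, below the 2-fold threshold, and between days 1 and 3 it was 0.02 (-0.01 to 0.05). Its direction depended on the scale, since with TMM factors the values were -0.54 on day 1 and -0.51 on day 3.

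For miR-29b-3p, the guide made from both clusters, 846, 1691 and 3213 reads were counted. They correspond to 99.4 CPM (93.0 to 106.4) on day 0, 263.4 CPM (251.1 to 276.2) on day 1 and 328.0 CPM (316.9 to 339.6) on day 3, higher on each later day. The fold change from day 0 was 2.65 on day 1 (log2 1.41, 1.29 to 1.52, adjusted p = 5.0e-126) and 3.30 on day 3 (log2 1.72, 1.61 to 1.83, adjusted p = 9.7e-253) in Fisher's exact tests adjusted by Benjamini-Hochberg over all miRNAs tested. It was the single member called higher. If libraries are assumed to vary with a coefficient of variation (CV) of 0.2, edgeR's exact test gives an adjusted p of 0.0041 on day 1, which loses the call, and 2.7e-04 on day 3, and with 0.4 both calls are lost (0.35 and 0.19). On the TMM scale miR-29b-3p stayed above day 0, by 0.46 and 0.80 in log2, but no longer by 2-fold.

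For miR-29c-3p, which differs from miR-29a-3p by C10U, the reads went from 8071 on day 0 to 2630 on day 1 and 2283 on day 3. In CPM these were 948.7 (928.2 to 969.6), then 409.6 CPM (394.2 to 425.5) and 233.1 CPM (223.7 to 242.8). The miRNA thus moved from rank 57 to rank 101 and rank 118, and on day 3 its CPM was below that of miR-29b-3p. The log2 fold change was -1.21 (-1.28 to -1.15) on day 1 and -2.02 (-2.09 to -1.96) on day 3, past the threshold on both days. In edgeR's exact test an assumed CV of 0.2 loses the day 1 call (adjusted p = 0.014), and 0.4 loses both (0.46 and 0.10). Between days 1 and 3 it was -0.81 (-0.89 to -0.73), short of 2-fold. The log2 fold change from day 0 was negative under every alternative tried, and lay between -2.25 and -1.21 on day 1 and between -3.15 and -2.02 on day 3.

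For miR-29c-5p, the other arm of the Mir29c hairpin, the fall was steeper than for its guide. The reads numbered 1907, 481 and 332, or 224.2 CPM (214.3 to 234.4) on day 0, 74.9 CPM (68.5 to 81.9) on day 1 and 33.9 CPM (30.4 to 37.7) on day 3. Each later library was below the one before it. The log2 fold change was -1.58 (-1.73 to -1.44) on day 1 and -2.73 (-2.89 to -2.56) on day 3, and over the alternatives tried it ran from -2.62 to -1.57 and from -3.85 to -2.69. From day 1 to day 3 it was -1.14 (-1.35 to -0.94, adjusted p = 1.9e-28, Fisher's exact test, Benjamini-Hochberg adjusted). That made miR-29c-5p the one member called between the injured libraries, a call lost with the deposited expression value (-0.82) and, in edgeR's exact test, with an assumed CV of 0.2 (adjusted p = 0.049) or 0.4 (0.81). The day 1 call against day 0 is also lost at 0.2 (adjusted p = 0.0011) and 0.4 (0.27), and the day 3 call at 0.4 (0.0195) by the same exact test.

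For miR-29a-5p, the other arm of the Mir29a hairpin, 36, 36 and 31 reads were counted. The levels, 4.23 CPM (3.06 to 5.86), 5.61 CPM (4.05 to 7.76) and 3.17 CPM (2.23 to 4.49), have overlapping intervals. A difference from day 0 was not detectable at this depth, with log2 fold changes of 0.41 (-0.26 to 1.07) on day 1 and -0.42 (-1.11 to 0.27) on day 3. With TMM factors, however, miR-29a-5p was past the threshold on day 3, at -1.34.

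**Figure D2:**
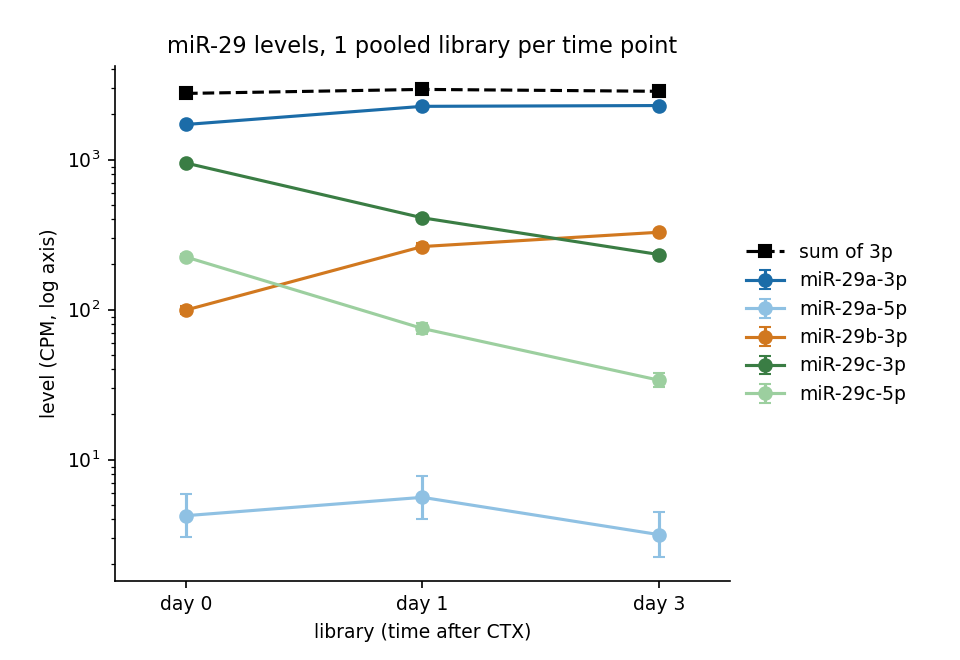
Level of each miR-29 member in CPM (log axis) in the day 0, day 1 and day 3 libraries. Bars are 95% Wilson intervals for counting error, and black squares give the sum of the 3 guides. miR-29c-3p goes from 948.7 to 233.1 CPM and miR-29c-5p from 224.2 to 33.9 CPM, miR-29b-3p rises from 99.4 to 328.0 CPM, and the sum stays between 2763.7 and 2939.5 CPM.

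Among the 5 members, 1 was called higher and 2 lower on day 1, and the same 1 and 2 were called on day 3, with miR-29b-3p as the one higher and both miR-29c arms as those lower. Across all miRNAs tested, 25.1% were called higher and 4.31% lower on day 1, and 26.1% higher and 4.36% lower on day 3. Between days 1 and 3, no member was called higher and 1 was called lower, against 9.6% and 7.16% of all miRNAs. With TMM factors, 0 members were higher and 2 lower on day 1 and 0 higher and 3 lower on day 3, against 12.9% of all miRNAs higher and 10.7% lower on day 1 and 15.6% and 10.3% on day 3. A call meant a fold change of at least 2 with an adjusted p of at most 0.001. The median log2 fold change of the members was 0.40 on day 1 and -0.42 on day 3, against 1.41 and 1.73 over all 998 and 1056 miRNAs tested, many of which had few reads.

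Few abundant miRNAs fell as far as miR-29c-3p. Of the 190 miRNAs with at least 1000 reads over the day 0 and day 3 libraries, 5 had a lower log2 fold change than miR-29c-3p. On day 1, of 160 such miRNAs, 14 were lower than miR-29c-3p. The other arm, miR-29c-5p, passed this filter only through its 1907 reads on day 0, against 481 and 332 later, so its position is not given. Likewise, miR-29b-3p passed the filter by day 3 only through its 3213 reads in that library, against 846 on day 0, so its position is not given either. Relative to the median miRNA, the log2 change by day 3 was -3.66 for miR-29c-5p, -2.96 for miR-29c-3p, -0.51 for miR-29a-3p and 0.79 for miR-29b-3p.

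**Figure D3:**
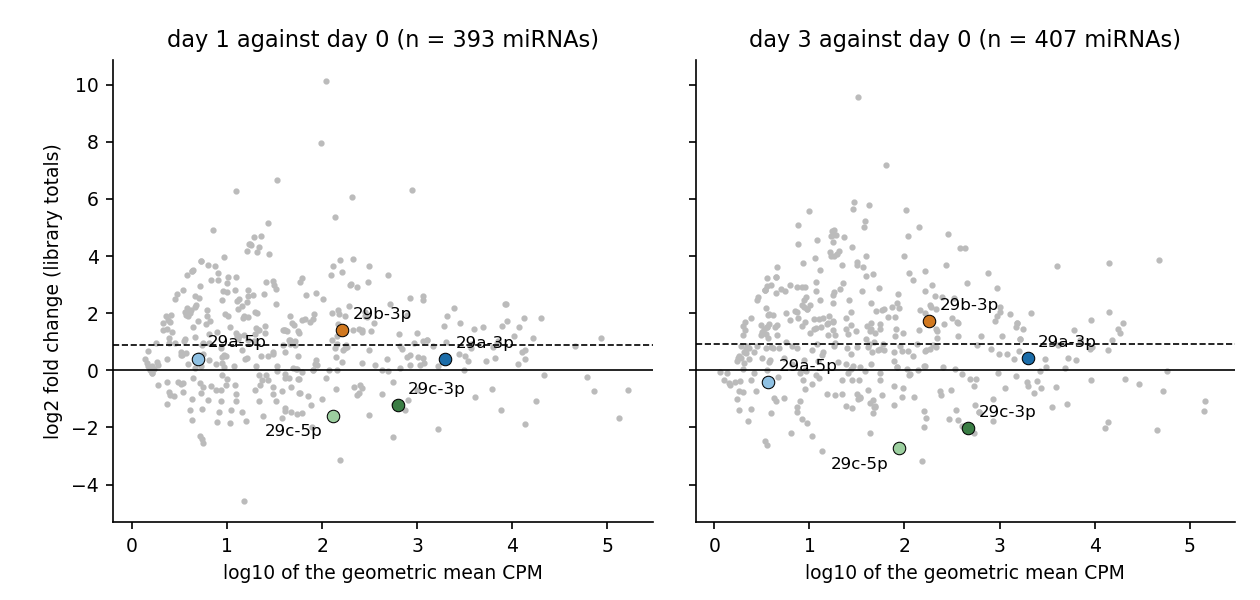
Log2 fold change from day 0 (library totals) against the log10 geometric mean CPM of each pair of libraries, for miRNAs with at least 10 reads in both. Grey points are other miRNAs, coloured points the 5 members, and the dashed line is the median at 0.90 (day 1) or 0.93 (day 3). miR-29b-3p lies above that line and the miR-29c arms lie near the lower edge of the cloud.

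The division of reads within the family does not depend on library scaling. Of the guide reads, miR-29c-3p held 34.3% (33.7 to 34.9) on day 0, 13.9% (13.5 to 14.4) on day 1 and 8.16% (7.85 to 8.49) on day 3. The share of miR-29a-3p went from 62.1% (61.5 to 62.7) to 77.1% (76.5 to 77.7) and 80.3% (79.9 to 80.8), and that of miR-29b-3p from 3.60% (3.37 to 3.84) to 8.96% (8.56 to 9.38) and 11.5% (11.1 to 11.9). All 9 differences between libraries exceeded counting error, the weakest being that of miR-29a-3p between days 1 and 3 (3.24 percentage points, adjusted p = 3.5e-17, Fisher's exact test, Benjamini-Hochberg adjusted over the 9). As ratios of reads, miR-29a-3p outnumbered miR-29c-3p by 1.81 on day 0, 5.53 on day 1 and 9.84 on day 3, and miR-29c-3p went from 9.54 times the reads of miR-29b-3p to 0.711 times. Ligation and amplification can favour one sequence over another, so the ratio between members within a library is less certain than its change between libraries.

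**Figure D4:**
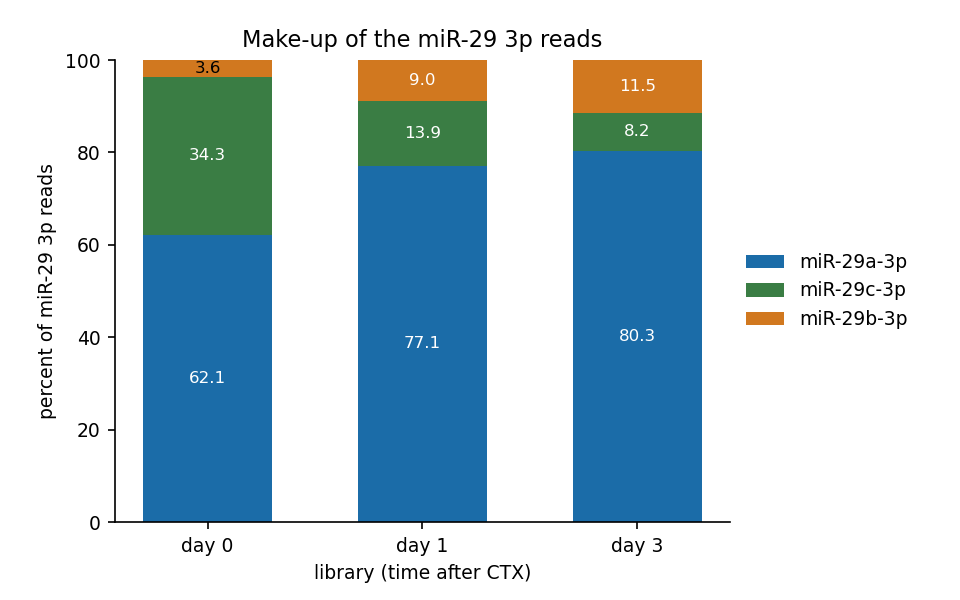
Stacked bars of the percent of miR-29 3p reads that came from miR-29a-3p, miR-29c-3p and miR-29b-3p in each library. The share of miR-29c-3p goes from 34.3% on day 0 to 8.16% on day 3.

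The arms of the hairpins were used unequally, and the balance moved for miR-29c. On day 0, the 5p arm made up 19.1% (18.4 to 19.9) of the reads of miR-29c but 0.246% (0.178 to 0.340) of those of miR-29a, from hairpins that place their arms at the same distances from the hairpin start. The 5p share of miR-29c was 15.5% (14.2 to 16.8) on day 1 and 12.7% (11.5 to 14.0) on day 3. It differed from day 0 on day 1 (adjusted p = 9.7e-06) and on day 3 (adjusted p = 2.2e-14) by Fisher's exact test, adjusted over the 6 arm comparisons. This share includes reads of miR-29c-3p, which a single base separates from the more abundant miR-29a-3p. The part of miscounted reads in its change was not tested. The 5p share of miR-29a was 0.247% (0.178 to 0.341) on day 1 and 0.138% (0.0971 to 0.196) on day 3, from 36 and 31 reads, and its adjusted p against day 0 by the same exact test was 1 and 0.021, short of the threshold of 0.001.

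Since miR-29b-3p cannot be traced to a locus, the 5p arms give the only reads that separate the clusters by hairpin for miR-29b. The 5p arm of Mir29b-1, on chromosome 6, had 114, 175 and 255 reads, or 13.4, 27.3 and 26.0 CPM, on days 0, 1 and 3. The 5p arm of Mir29b-2, on chromosome 1, had 8, 6 and 5 reads, or 0.940, 0.934 and 0.511 CPM. On the CPM scale the Mir29b-1 arm was thus higher in both injured libraries than on day 0, with a log2 fold change of 1.02 (0.68 to 1.36) on day 1 and 0.96 (0.64 to 1.28) on day 3, and the Mir29b-2 arm was too rare to show a difference. Median-of-ratios factors, which shift every log2 value by -1.04 on day 1 and -1.12 on day 3, turn the sign for the Mir29b-1 arm. Of the miR-29b 5p reads, 93.4% (87.6 to 96.6), 96.7% (93.0 to 98.5) and 98.1% (95.6 to 99.2) came from Mir29b-1. How far the 5p reads of a hairpin track its guide is not known from these files, as the arm shares of miR-29a and miR-29c above show.

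Summed by cluster, the 5p arms of chromosome 1 went from 225.1 CPM to 75.8 CPM and 34.4 CPM, and those of chromosome 6 from 17.6 CPM to 32.9 CPM and 29.2 CPM. The chromosome 1 cluster held 92.7% (91.5 to 93.8) of all miR-29 5p reads on day 0, 69.8% (66.3 to 73.1) on day 1 and 54.1% (50.2 to 58.0) on day 3. These sums are mainly miR-29c-5p on chromosome 1 and miR-29b-1-5p on chromosome 6. The chromosome 6 sum differed from day 0 by 0.90 and 0.73 in log2, and TMM factors, which shift every value by -0.94 and -0.93, turn its sign, whereas the cluster shares carry no scaling.

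**Figure D5:**
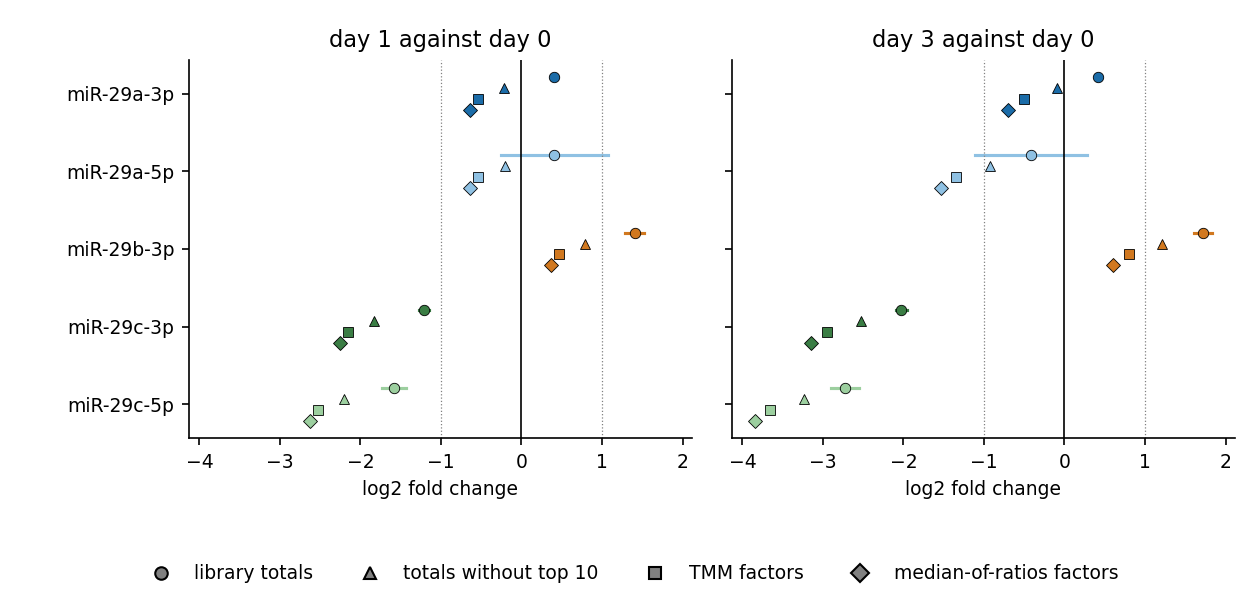
Log2 fold change from day 0 of each member on day 1 and day 3 under 4 scalings, with the 95% counting interval drawn at the value from library totals. Dotted lines mark a 2-fold change in either direction. Both miR-29c arms lie beyond -1 and miR-29b-3p lies above 0 under all 4, whereas miR-29a-3p is above 0 with library totals and below 0 with the others.

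The guides' summed pattern, nearly flat on the CPM scale, was compared with those of the 222 miRNAs outside the family with at least 1000 reads over the libraries, by the Euclidean distance between pairs of log2 fold changes (day 1 and day 3 from day 0). The nearest was miR-1839-5p, at 337.7, 385.0 and 347.3 CPM (distance 0.100). It was followed by let-7c-2-3p and let-7a-1-3p, which were listed with the same reads in every library (80.3, 80.7 and 87.3 CPM, distance 0.110), by miR-196b-5p (distance 0.153) and by miR-574-3p (distance 0.169). The likeness is over 3 libraries and is a description of these reads.

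Other miRNAs that are known to lower or promote fibrosis moved in both directions. Their counts are given from library totals, on which 25.1% of all miRNAs were called higher and 4.31% lower on day 1, and 26.1% and 4.36% on day 3, and then with TMM factors, an alternative chosen for these lists after the values were seen, on which 12.9% were called higher and 10.7% lower on day 1, and 15.6% and 10.3% on day 3. Of 7 miRNAs known to lower fibrosis, 1 was called higher and 1 lower on day 1, and 1 higher and 4 lower on day 3. The median log2 fold change of the list was 0.17 on day 1 and -1.24 on day 3, beside 1.41 and 1.73 over all miRNAs tested. With TMM factors 0 were higher and 3 lower on day 1 and 0 higher and 5 lower on day 3, and the day 1 median turned negative, at -0.78.

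In this list miR-30a-5p, which restrains connective tissue growth factor, was at 1552.3, 1743.8 and 458.6 CPM on days 0, 1 and 3, and its family member miR-30c-5p at 790.6, 897.8 and 204.7 CPM. On library totals both were near their day 0 level on day 1 and called lower on day 3. With TMM factors both were already below day 0 on day 1, by -0.78 and -0.76 in log2, short of 2-fold. The myofiber miRNA miR-133a-3p, also in this list, was at 25869, 12222 and 7340 CPM, lower in each later library and called lower on both scales on both days. The 1 called higher was miR-200b-3p, at 1.175, 6.697 and 6.534 CPM, and with TMM factors that call was lost on both days. On library totals let-7d-5p was also above day 0, at 10788, 12481 and 17811 CPM, short of 2-fold. With TMM factors it was below day 0, by -0.73 on day 1 and -0.20 on day 3 in log2.

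Of 6 miRNAs known to promote fibrosis, 4 were called higher and none lower on each day, with medians of 1.74 and 2.23 beside 1.41 and 1.73 over all miRNAs tested. With TMM factors 3 were higher and 0 lower on day 1, and 3 higher and 1 lower on day 3. The 3 called higher on both scales and both days were miR-21a-5p, which heightens transforming growth factor beta signalling (3865, 19120 and 52565 CPM), miR-34a-5p, a p53 target (1147, 5155 and 14371 CPM), and miR-214-3p, made with miR-199a in fibroblasts (69.7, 566.3 and 555.6 CPM). The level of miR-145a-5p was 630.3, 1570.6 and 513.5 CPM, above day 0 on day 1 and below it on day 3. With TMM factors its log2 fold change was 0.37 on day 1, not called, and -1.22 on day 3, the 1 called lower. The log2 fold changes of miR-155-5p, 0.77 for day 1 and 0.72 for day 3, were below the median miRNA, and those of miR-199a-5p were 0.27 and 1.46. With TMM factors they were -0.17 and -0.21 for miR-155-5p and -0.68 and 0.53 for miR-199a-5p, none called.

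Of 9 miRNAs listed for a part in myoblast differentiation, 1 was called higher and 4 lower on day 1, and 2 higher and 3 lower on day 3. Those called lower were miR-1a-3p, miR-133a-3p and miR-486a-5p on both days and miR-206-3p on day 1. All of them are also in the myofiber list below, so the lists are not independent. Across all miRNAs tested, 25.1% were called higher and 4.31% lower on day 1, and 26.1% and 4.36% on day 3. The median of the list was -0.23 for day 1 and -0.34 for day 3 in log2, beside 1.41 and 1.73 over all miRNAs tested and 0.90 and 0.93 over those with at least 10 reads in both libraries. With TMM factors 0 were higher and 5 lower on day 1, and 2 higher and 5 lower on day 3. On that scale 12.9% of all miRNAs were called higher and 10.7% lower on day 1, and 15.6% and 10.3% on day 3. Within this list miR-1a-3p fell by 1.66 on day 1 and by 1.41 on day 3 in log2 on library totals, and miR-206-3p, a marker of regenerating fibers, was 1.37 lower in log2 on day 1 and 3.86 higher on day 3.

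Markers of cell types moved in the same libraries, and the counts on each scale stand against that scale's shares of all miRNAs called, given above. Of 7 myofiber miRNAs, 5 were called lower on day 1 and 4 lower and 1 higher on day 3 (6 lower on day 1 and the same counts on day 3 with TMM factors). Their summed level was 274412, 91697 and 277532 CPM on days 0, 1 and 3, the last mostly miR-206-3p. Of 6 leukocyte miRNAs, 4 were called higher on each day on both scales, and with TMM factors 1, miR-150-5p, was lower on day 3. Their sum was 5149, 19499 and 7479 CPM, but on day 0 it was mostly miR-150-5p (4733, 8307 and 3197 CPM), whereas miR-223-3p was at 97.8, 7815 and 1896 CPM and miR-142a-3p at 25.2, 1684 and 816.2 CPM.

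For fibroblasts and mural cells, 3 of 5 miRNAs were called higher on each day, but with TMM factors 1 was higher on day 1, and 1 higher and 2 lower on day 3. Their sum of 36929, 67452 and 31586 CPM was mostly miR-143-3p (34278, 62190 and 24829 CPM), while miR-199a-3p was at 873.5, 1831 and 2726 CPM. Both endothelial and both erythroid miRNAs were called higher on day 1 on library totals and none of these 4 with TMM factors. On day 3 none was called on library totals, and with TMM factors 1 endothelial miRNA was lower. The endothelial sum was 59427, 132923 and 58732 CPM and the erythroid sum 7142, 25326 and 12560 CPM. No marker was at 0 reads in any library, and the lowest was miR-208b-3p with 4, 1 and 10 reads. The part of these cell types in the miR-29 values was not tested.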

How the data were processed

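Small RNA reads (BGISEQ, GRCm38.p6) came from 3 libraries of TA muscle, each pooled from 4 samples. The submitters' processing notes name HISAT and Bowtie2 without a role, and no mismatch setting is given in the sources used here. The authors deposited for each miRNA a read count, without normalization, and an expression value, treated as a score because how the authors made it is not stated. For the members it was 87.7% to 100% of the read count. Over all miRNAs it was a much smaller part, with totals of 2583553, 3017586 and 3688064 on days 0, 1 and 3 against 8507580, 6421056 and 9795076 reads. The members and lists were chosen with earlier results of these data known. Named beside them were the other miR-29 arms, the 5 miRNAs nearest the guides' summed pattern and up to 4 examples per list. The exceptions, named after their values were seen, were all 6 of the fibrosis-promoting list and, in the fibrosis-lowering list, miR-200b-3p and let-7d-5p.

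Reads were scaled to library totals and compared by two-sided Fisher's exact tests with Benjamini-Hochberg adjustment over miRNAs with any read in the pair, at the study's thresholds (fold change 2, adjusted p 0.001). The guide sums were tested singly. A replicate model needs more than the 1 library each time point has. Alternatives were TMM and median-of-ratios factors, totals without the 10 most abundant miRNAs (exact conditional binomial tests), the score scaled to its total, a pseudocount of 1 CPM, thinning to 6421056 reads, at least 10 reads in both libraries, folds of 1.5 and 4, and edgeR's exact test assuming 0.2 or 0.4 as the coefficient of variation. The procedure was tested on simulated counts with planted 4-fold changes and counting error only. That test cannot speak to variation between libraries or to the choice of scaling. Sequences were from RefSeq and positions from GENCODE M21. Factors came from edgeR 4.0.16 and DESeq2 1.42.0 under R 4.3.3, and tests from scipy 1.17.1 and pandas 2.3.3 under Python 3.11.15.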

Additional observations from a re-analysis of the deposited data

Results flagged for a closer look

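The 5p arm of miR-29a had log2 fold changes from day 0 of opposite sign, 0.41 on day 1 and -0.42 on day 3. They rest on 36, 36 and 31 reads, and the difference between the injured libraries, -0.83 (-1.52 to -0.13), had an adjusted p of 0.065 by Fisher's exact test, adjusted by Benjamini-Hochberg over all miRNAs. The sign on day 1 turned negative with TMM factors (-0.54), whereas that on day 3 stayed negative.

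The 5p arm of miR-29c changed further between the injured libraries, by -1.14 in log2, and was the one member past the threshold there, a call that was lost with the deposited expression value and when libraries were assumed to vary by a CV of 0.2 or 0.4. With 1 library per time point, no sample could be set against others of its group.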

How the results depend on the processing

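Differences from day 0 for the summed guides turned from positive to negative with TMM factors (-0.86 on day 1 and -0.88 on day 3), with median-of-ratios factors (-0.95 and -1.07), for totals without the 10 most abundant miRNAs (-0.53 and -0.46) and with the score (-0.53 and -0.31). Against day 1, the day 3 sum turned positive with those reduced totals (0.066) and with the score (0.22). The scalings themselves shift every miRNA, by -0.94, -1.04 and -0.62 on day 1 and -0.93, -1.12 and -0.51 on day 3, in the order given. For miR-29a-3p the values that turned were -0.54, -0.64, -0.21 and -0.22 on day 1 with the 4 alternatives, -0.51, -0.70 and -0.089 on day 3 with the 3 scalings, and -0.060 from day 1 to day 3 with median-of-ratios factors. For miR-29a-5p they were -0.54, -0.64, -0.21 and -0.22 on day 1, and on day 3 it was past the threshold with TMM (-1.34) and median-of-ratios factors (-1.54). The 5p share of miR-29a on day 1 minus day 0 turned to -0.0012 percentage points with the score and -0.034 with thinned reads.

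Calls of miR-29b-3p as higher went from 1 to 0 with TMM or median-of-ratios factors on both days, and on day 1 also with the reduced totals and the score. An assumed coefficient of variation of 0.4 between libraries left 0 calls in either direction on both days and between them. One of 0.2 left 0 in either direction on day 1 and 0 lower between days 1 and 3, and on day 3 it left the calls as they were. A fold of 4 gave 0 calls on day 1 and from day 1 to day 3 and 0 higher on day 3. From day 1 to day 3 the score gave 0 lower and a fold of 1.5 gave 2. The cause of these changes was not tested beyond the shifts given. Differences in the guide shares and in the miR-29c arm share kept their direction and side of the threshold with the score and with thinned reads. Depth limits miR-29a-5p and miR-29b-2-5p, and variation among mice was not measured.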
